A study of Nicotiana tabacum with 12 samples.

Results

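Tobacco seedlings whose AmMIXTA transgene had been switched on were compared between 48 h and 4 h after induction. AmMIXTA is a MYB transcription factor of Antirrhinum majus that specifies conical epidermal cells, and the series asks how it starts glandular trichomes on cotyledons. The comparison rests on 6 of the 12 libraries of the series, chosen by their labels: 3 libraries of induced seedlings collected at 48 h and 3 of induced seedlings collected at 4 h. Both groups were Nicotiana tabacum cultivar Petit Havana (SR1), grown from selected T2 seed of stable transformants in which a β-estradiol-inducible promoter drives AmMIXTA, and both received β-estradiol. The 48 h seedlings were 9 days old and the 4 h seedlings 7 days old. Each library came from the aerial parts of 15 pooled seedlings, and polyadenylated RNA was sequenced with paired reads. The 6 non-induced libraries, of the same transformed seed stock without β-estradiol, are used only to set the change between the same ages beside that in induced seedlings. Estradiol-treated seedlings without the transgene and the level of AmMIXTA itself were not analysed here, and the labels do not say how many transformant lines the seed came from or at what clock time tissue was taken. Time since induction, age and hour of collection therefore cannot be told apart in the comparison of 48 h with 4 h.

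A seedling of this age is turning from the reserves of the seed to its own photosynthesis: cotyledons expand, plastids mature, and the first leaves start at the shoot apex. Abscisic acid, the hormone of seed maturation and of water shortage, is made from carotenoids by 9-cis-epoxycarotenoid dioxygenase (NCED). It acts through receptors that block protein phosphatases 2C, which frees kinases that activate bZIP factors of the ABF family. In tobacco nicotine is made mostly in roots and moved to leaves, while glandular trichomes secrete diterpenes and sugar esters from leaf surfaces.

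After genes with inflated single entries were left out, the 48 h libraries held 12439483, 16459881 and 23653158 recovered reads and the 4 h libraries 27231128, 29215291 and 21696992. Inflated entries of a few genes had taken 69.3%, 55.7% and 24.3% of all reads in the 48 h libraries, against 2.85% to 3.11% in the 4 h libraries. The TMM factors (a scaling that lines up the bulk of genes) lay between 0.912 and 0.986 at 48 h and between 1.03 and 1.08 at 4 h. Levels below are CPM, the recovered reads of a gene set against the scaled total of its library, and fold changes are log2 differences of log2(CPM + 0.5). Leaf genes were high in every library of the aerial parts, such as Lhcb6 (LOC107792047), an antenna protein of photosystem II, at 1823.5, 1750.7 and 1521.0 CPM at 48 h and 1136.2, 1039.5 and 1094.4 CPM at 4 h.

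Of 39664 genes tested, 3493 were higher and 3403 lower at 48 h than at 4 h at an adjusted p under 0.05 (limma, Benjamini-Hochberg). That is a background of 17.4% of genes called, 8.81% higher and 8.58% lower, against which every count below is read. The change was at least 2-fold for 1018 of the higher and 905 of the lower genes. The 48 h libraries all lay above the 4 h libraries for 3438 of the higher genes and all below them for 3346 of the lower genes, while over all genes tested 16.7% lay above and 17.1% below without overlap. The median log2 fold change of all genes was -0.01. Scaling by library size alone, without TMM, moved that median to -0.14, with 2285 genes higher and 5542 lower. Directions are therefore relative to the bulk of genes. Of the higher genes 139 had all 4 h libraries under 1 CPM, and of the lower genes 68 had all 48 h libraries under it, so these entered the test through the high group alone. Only 1369 of the tested genes carry a name, and 425 of the named ones were called.

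Names come from 2 sources that differ in what they can show. RefSeq symbols were given without regard to these libraries. Descriptions come only from the authors' deposited tables of genes higher in induced than in control seedlings at 48 h or at 4 h, so such genes were picked on these libraries. Of the 569 tested genes in the deposited 48 h table alone, 169 were higher and 14 lower at 48 h than at 4 h. Of the 144 tested genes in the 4 h table alone, 7 were higher and 47 lower. Genes in both deposited tables are not in these counts. Directions of genes with such descriptions lean on that choice.

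**Figure D1:**
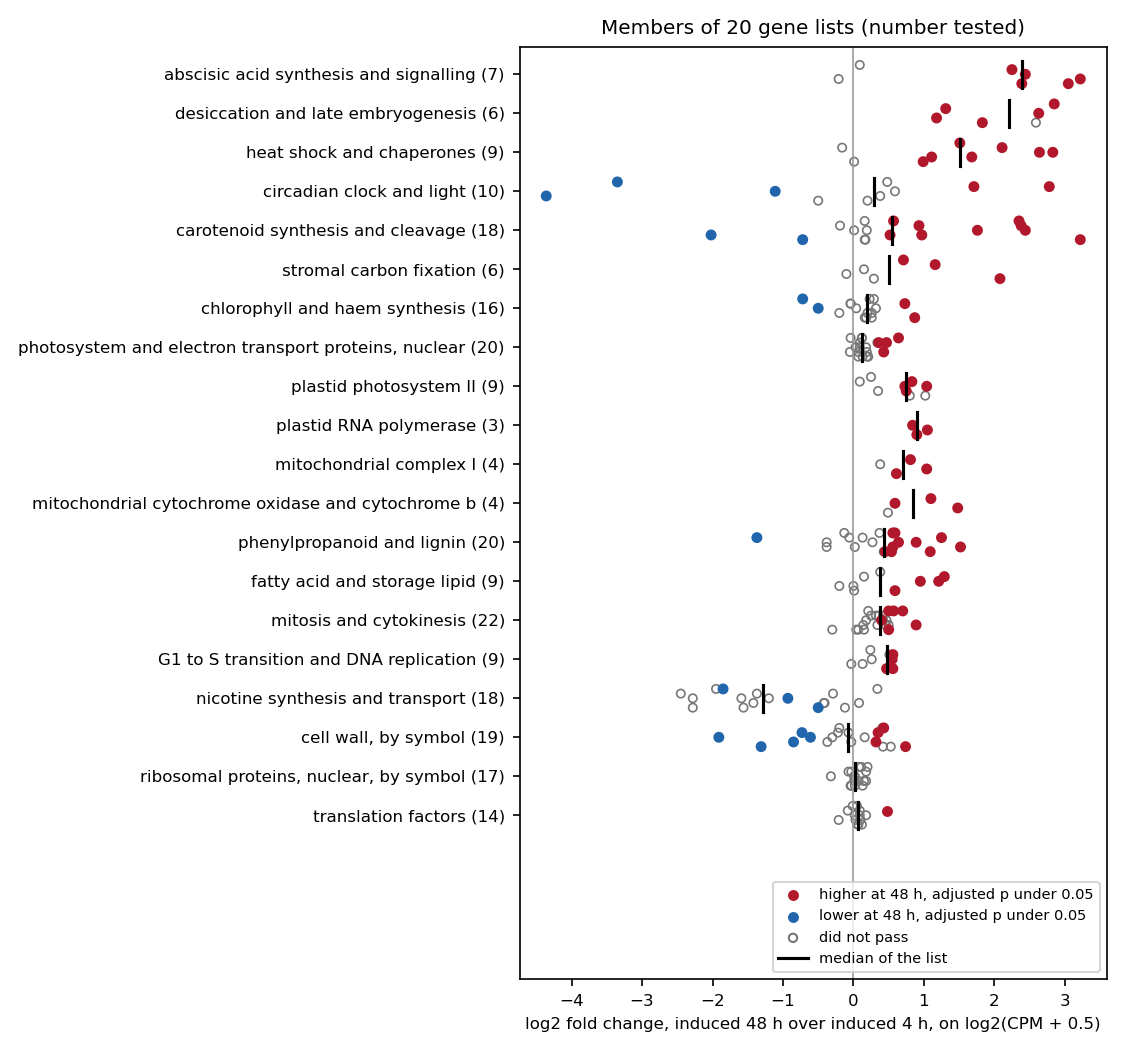
Log2 fold change of induced seedlings at 48 h over 4 h (horizontal axis) for the tested members of 20 gene lists (vertical axis, number tested in brackets). Filled points passed an adjusted p of 0.05 (red higher, blue lower at 48 h), open points did not, and the black bar is the median of the list. The abscisic acid list has its median at 2.39 and the list of nuclear ribosomal proteins with RefSeq symbols at 0.02.

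Part of the genes of abscisic acid synthesis and signalling were higher at 48 h. Of 7 tested genes with RefSeq symbols in this pathway 5 were higher and none lower, with a median log2 fold change of 2.39. Of 6 more, described so in the authors' deposited lists of higher genes, 2 were higher, 4 were not called and the median was 0.67; with 1 library left out 1 to 3 were higher. The 2 were protein phosphatase 2C 39 (LOC107831897; 0.97 ± 0.15, adjusted p = 2.3e-04) and abscisic acid 8'-hydroxylase 4-like (LOC107820622; 1.1 ± 0.33, adjusted p = 0.026), of the enzymes that break the hormone down, with all 4 h libraries under 1 CPM. NCED3 (LOC107827644), the enzyme that commits carotenoids to abscisic acid, had 35.1, 23.1 and 49.5 CPM at 48 h, against 2.70, 1.71 and 6.88 CPM at 4 h. Its log2 fold change was 3.22 ± 0.57 (standard error; adjusted p = 0.026). The second NCED3 locus (LOC107799511, also listed as NCED3-1) had 32.2, 22.3 and 49.3 CPM at 48 h and 5.11, 4.12 and 8.48 CPM at 4 h. Neither locus overlapped between the times, replicate 3 was highest and replicate 2 lowest within each time for both, and near-identical copies may share reads. The log2 fold change of NCED3-1 was 2.44 ± 0.38 (adjusted p = 0.0096).

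Downstream of the hormone, ABF2 (LOC107824387), a bZIP activator of abscisic acid responses, had 44.2, 38.3 and 76.5 CPM at 48 h, against 6.04, 4.95 and 6.08 CPM at 4 h. The 48 h libraries were all well above the 4 h libraries, which lay close together. ABF2 rose by 3.05 ± 0.23 on the log2 scale (adjusted p = 1.8e-05). The phosphatases PP2C1 (LOC107803211) and PP2C2 (LOC107779894), of the family that holds the pathway off and is itself induced by abscisic acid in Arabidopsis, rose by 2.25 ± 0.40 (adjusted p = 0.023) and 2.39 ± 0.28 (adjusted p = 0.002). PP2C2 had 135.2, 97.2 and 158.8 CPM at 48 h and 26.9, 16.6 and 31.0 CPM at 4 h, again with replicate 3 highest and replicate 2 lowest at each time. ABF1 (LOC107815582) and the kinase OSAK (LOC107791496) did not pass, with log2 fold changes of 0.09 and -0.21.

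The calls on some of these genes rest on all 6 libraries. ABF2 and PP2C2 passed with each library left out in turn. NCED3 kept a log2 fold change between 2.84 and 3.71 but reached an adjusted p of 0.11 and lost the call without 4 h replicate 1 or 2 or 48 h replicate 1 or 3. NCED3-1 lost it without 4 h replicate 1, and PP2C1 without 4 h replicate 1 or 48 h replicate 1 or 3. Of the 7 genes 2 were higher without 4 h replicate 1, and 3 without 48 h replicate 1 or without 48 h replicate 3.

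The described genes with the largest rises included factors tied to the same hormone in Arabidopsis. AFP3-like (LOC107799287), of the ninja family of proteins that bind ABI5 and temper its action, had 46.0, 31.8 and 69.2 CPM at 48 h and 0.710, 1.33 and 1.69 CPM at 4 h. Its log2 fold change of 4.80 ± 0.31 (adjusted p = 1.2e-05) was the largest of any named gene, and it passed with each library left out. Both genes described as ATHB-12-like (LOC107765920 and LOC107772091), homeodomain-leucine zipper factors that respond to water shortage in Arabidopsis, had log2 fold changes of 4.11 ± 0.71 (adjusted p = 0.027) and 3.96 ± 0.56 (adjusted p = 0.013). The first had 82.2, 61.9 and 132.4 CPM at 48 h, against 3.05, 2.47 and 12.1 CPM at 4 h, so its 4 h libraries differed among themselves. It kept its call in only 1 of the 6 fits with a library left out, that without 4 h replicate 3, and LOC107772091 lost its own without replicate 1 of either time.

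The genes described as NAC72-like (LOC107765862 and LOC107771009), whose Arabidopsis namesake is a dehydration-responsive NAC factor, rose by 3.03 ± 0.34 (adjusted p = 0.0035) and 2.58 ± 0.35 (adjusted p = 0.0017). LOC107765862 had 112.5, 84.0 and 150.4 CPM at 48 h and 11.8, 9.89 and 20.1 CPM at 4 h. AFP1-like (LOC107785798) rose by 3.18 ± 0.59 (adjusted p = 0.028), a call lost without replicate 1 or 2 of either time. Of the genes described as TAF-1-like, after a tobacco bZIP activator that binds abscisic acid response motifs, LOC107806524 rose by 2.63 ± 0.27 (adjusted p = 1.8e-05). All of these descriptions come from the deposited 48 h table.

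Desiccation proteins, which protect cell structures in drying seeds and tissues, had 5 of 6 tested members higher and none lower, with a median of 2.21. LE25-like (LOC107813362) had 28.6, 22.5 and 34.7 CPM at 48 h and 3.66, 2.31 and 4.88 CPM at 4 h, with no overlap (log2 fold change 2.85 ± 0.23, adjusted p = 3.5e-06). The low-temperature-induced 65 kDa protein-like gene LOC107819933 had 23.8, 23.2 and 32.5 CPM at 48 h and 7.60, 8.08 and 5.64 CPM at 4 h (1.83 ± 0.16, adjusted p = 4.5e-07). All 6 were in the deposited 48 h table, so their direction is not independent of the choice of list. Without 48 h replicate 2 only 3 were higher. All 4 tested genes named for seeds or embryos were also higher, among them embryonic protein DC-8-like (LOC107832167; 2.49 ± 0.22, adjusted p = 5.3e-07), again all from that table, and 2 of the 4 are late embryogenesis genes counted above. Another of the 4 had all 4 h libraries under 1 CPM. Without 48 h replicate 2 the count was 2.

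**Figure D2:**
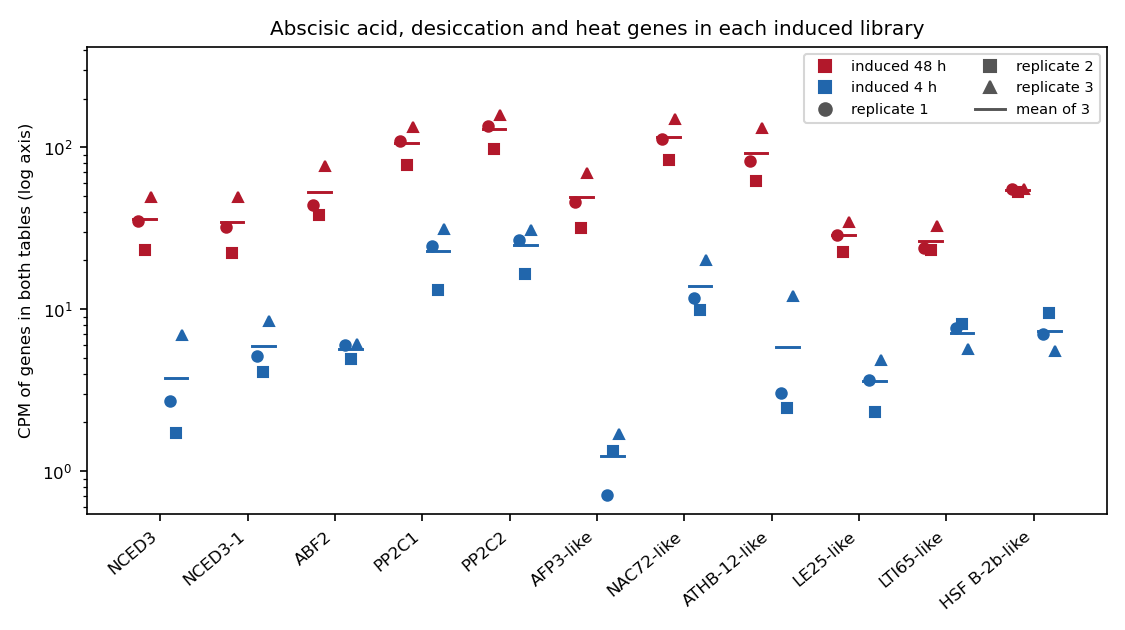
CPM on a log axis of 11 abscisic acid, desiccation and heat genes in each library of induced seedlings at 48 h (red) and at 4 h (blue), with replicates by symbol and the mean of 3 as a line. The groups do not overlap for any of the 11 genes, and for NCED3 the 48 h libraries lie between 23.1 and 49.5 CPM, against 1.71 to 6.88 CPM at 4 h.

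Heat stress factors and chaperones moved the same way, with 7 of 9 tested genes higher and none lower (median 1.51; 6 or 7 higher with 1 library left out). The genes described as heat stress transcription factor B-2b-like encode class B factors, which act mainly as repressors in Arabidopsis. LOC107823244 had 55.6, 52.6 and 54.9 CPM at 48 h and 7.00, 9.54 and 5.55 CPM at 4 h. Unlike the abscisic acid genes its 48 h libraries lay within a narrow range, and it rose by 2.83 ± 0.15 (adjusted p = 3.0e-09). LOC107769826 and LOC107775044, with the same description, rose by 2.64 ± 0.26 and 2.11 ± 0.35 (adjusted p = 1.7e-06 and 5.0e-04). LOC107769826, one of the 7, had 0.249, 0.317 and 0.532 CPM at 4 h and so passed the filter on low values only through the 48 h libraries. The co-chaperone dnaJ (LOC107763704), the only one of the 9 outside the deposited tables, had 5.02, 7.35 and 8.79 CPM at 48 h and 1.42, 1.84 and 2.22 CPM at 4 h (1.68 ± 0.23, adjusted p = 5.1e-05). The splicing factor SR45a-like (LOC107801083), stress-induced in Arabidopsis, and the AN1 and C2H2 zinc finger stress-associated protein 16-like (LOC107799902) rose by 2.64 ± 0.25 (adjusted p = 8.6e-06) and 2.87 ± 0.21 (adjusted p = 1.0e-07).

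Genes linked to light and the clock changed in both directions, with 2 of 10 higher and 3 lower. All 10 are described only in the deposited tables. The F-box protein At2g16365-like genes, known in Arabidopsis as a partner of phytochrome signalling, fell most among named genes, and both come from the deposited 4 h table. LOC107768020 had 1.76, 2.53 and 4.16 CPM at 48 h, against 55.8, 66.5 and 72.3 CPM at 4 h. LOC107808647 had 2.29, 2.22 and 1.72 CPM at 48 h and 22.1, 24.0 and 31.9 CPM at 4 h. The log2 fold changes were -4.36 ± 0.23 and -3.35 ± 0.17 (adjusted p = 7.2e-07 and 8.0e-10), with no overlap between times. GIGANTEA-like (LOC107786518), a clock protein that peaks late in the day in Arabidopsis, is in the 48 h table and fell by 1.11 ± 0.25 (adjusted p = 0.0051).

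In the other direction B-box zinc finger protein 19-like (LOC107807066), named after an Arabidopsis regulator of light responses, had 18.9, 22.7 and 20.2 CPM at 48 h and 2.59, 2.85 and 2.26 CPM at 4 h. It rose by 2.78 ± 0.16 (adjusted p = 2.2e-09) and came from the deposited 4 h table. REVEILLE 3-like (LOC107827724), of the morning-phased MYB family of the clock, rose by 1.71 ± 0.21 (adjusted p = 1.6e-05). The photoreceptor phyB (LOC107767359) rose by 0.58 ± 0.13 (adjusted p = 0.0051), and PHYA1 (LOC107827766) did not pass (-0.26 ± 0.12, adjusted p = 0.15). The hour of collection was not given, so its part in these changes was not tested.

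Most carotenoid genes with RefSeq symbols changed: of 18 tested, 9 were higher and 2 lower (median 0.55), the NCED3 loci among the 9. Without any one library 8 or 9 stayed higher and 2 lower. The beta-carotene hydroxylases, which make zeaxanthin, rose most after NCED3. CrtR-b1 (LOC107809222) had 73.1, 67.8 and 58.9 CPM at 48 h and 10.4, 18.3 and 10.7 CPM at 4 h (2.35 ± 0.19, adjusted p = 1.4e-05). BCH2 (LOC107822278) had 35.8, 32.5 and 34.7 CPM at 48 h and 5.93, 6.47 and 6.17 CPM at 4 h (2.38 ± 0.12, adjusted p = 6.7e-10). Neither gene overlapped between the times, and for CrtR-b1 replicate 2 stood above the other 4 h libraries.

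Phytoene synthase, the entry step of the pathway, rose at both loci. PSY2 (LOC107818367) had 32.3, 31.2 and 22.9 CPM at 48 h, against 6.71, 11.6 and 6.66 CPM at 4 h (1.76 ± 0.21, adjusted p = 1.1e-04), and psy-1 (LOC107772713) rose by 0.93 ± 0.11 (adjusted p = 1.4e-05). The cleavage enzymes CCD1-2 (LOC107817468) and CCD1-1 (LOC107830214) rose by 0.97 ± 0.14 and 0.52 ± 0.11 (adjusted p = 7.5e-05 and 0.0024), while CCD4 (LOC107791323) had a log2 fold change of 0.97 ± 0.28 and did not pass (adjusted p = 0.065). The genes that fell were violaxanthin de-epoxidase and lycopene beta-cyclase. VDE (LOC107763628), which makes zeaxanthin in strong light, had 25.7, 31.5 and 30.4 CPM at 48 h and 126.5, 122.5 and 110.3 CPM at 4 h (-2.02 ± 0.11, adjusted p = 2.1e-09). LcyB (LOC107763207) fell by 0.72 ± 0.14 (adjusted p = 0.0012).

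Among genes that supply precursors to plastid isoprenoids, those of the first step, 1-deoxyxylulose 5-phosphate synthase, rose. The dxs genes LOC107818796 and LOC107790348 rose by 1.15 ± 0.10 (adjusted p = 5.5e-07) and 0.79 ± 0.10 (adjusted p = 3.2e-05). The next enzyme, DXR (LOC107818871), fell by 0.55 ± 0.13 (adjusted p = 0.0078). HMGR2 (LOC107777769) and HMGR1 (LOC107832729), of the cytosolic mevalonate route, rose by 0.60 ± 0.11 and 0.81 ± 0.16 (adjusted p = 9.1e-04 and 0.0018). Over the list 5 of 12 genes were higher and 1 lower (median 0.15).

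Chlorophyll and haem genes were mostly below the threshold, with 2 of 16 higher and 2 lower (median 0.19; 4 higher without 48 h replicate 3). The protochlorophyllide reductases, light-driven enzymes of chlorophyll synthesis, moved apart. POR1 (LOC107820326) had 605.0, 603.9 and 567.4 CPM at 48 h and 907.0, 1139.3 and 898.9 CPM at 4 h (-0.72 ± 0.11, adjusted p = 2.3e-04). POR2 (LOC107795891) had 497.2, 470.1 and 387.6 CPM at 48 h and 256.9, 289.8 and 266.0 CPM at 4 h (0.73 ± 0.12, adjusted p = 2.3e-04). Neither overlapped between times. Geranylgeranyl reductase, chlP (LOC107783257), which makes the phytyl tail, rose by 0.87 ± 0.11 (adjusted p = 3.4e-05), and ferrochelatase, FeCh (LOC107779891), of the haem branch, fell by 0.50 ± 0.12 (adjusted p = 0.0059).

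Genes of carbon fixation were higher at 48 h in part. Rubisco activase, which frees rubisco of inhibitors, was higher at both Rca loci. LOC107819807 had 1049.1, 1459.0 and 700.3 CPM at 48 h and 292.0, 187.1 and 257.4 CPM at 4 h (2.08 ± 0.32, adjusted p = 0.0088). LOC107798594 had 3031.8, 3671.1 and 2681.5 CPM at 48 h and 1593.4, 1193.3 and 1403.5 CPM at 4 h (1.16 ± 0.13, adjusted p = 8.7e-06). Of 6 stromal genes 3 were higher and none lower, the other being GAPB (LOC107801158; 0.71 ± 0.12, adjusted p = 6.0e-04).

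Catalase, which removes the hydrogen peroxide of photorespiration, rose at the cat1 loci LOC107799583 (1.82 ± 0.18, adjusted p = 2.5e-05) and LOC107828252 (1.86 ± 0.14, adjusted p = 1.3e-07). The first had 300.6, 354.2 and 201.6 CPM at 48 h and 83.7, 82.4 and 70.0 CPM at 4 h. CAT-1 (LOC107786140), a further catalase of the same family, overlapped between times and did not pass (-0.33 ± 0.24, adjusted p = 0.43). Among 20 nuclear genes of photosystems and electron transport 4 were higher and none lower (median 0.12), with Lhcb6 the largest at 0.64 ± 0.11 (adjusted p = 4.3e-04). That count was 2 without 48 h replicate 1 and without any of the 4 h replicates. The fatty acid desaturases FAD2 (LOC107823061) and NtFAD7 (LOC107783156), the second a plastid enzyme, rose by 1.21 ± 0.11 and 0.95 ± 0.11 (adjusted p = 4.8e-07 and 1.3e-05), and 4 of 9 lipid genes were higher.

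**Figure D3:**
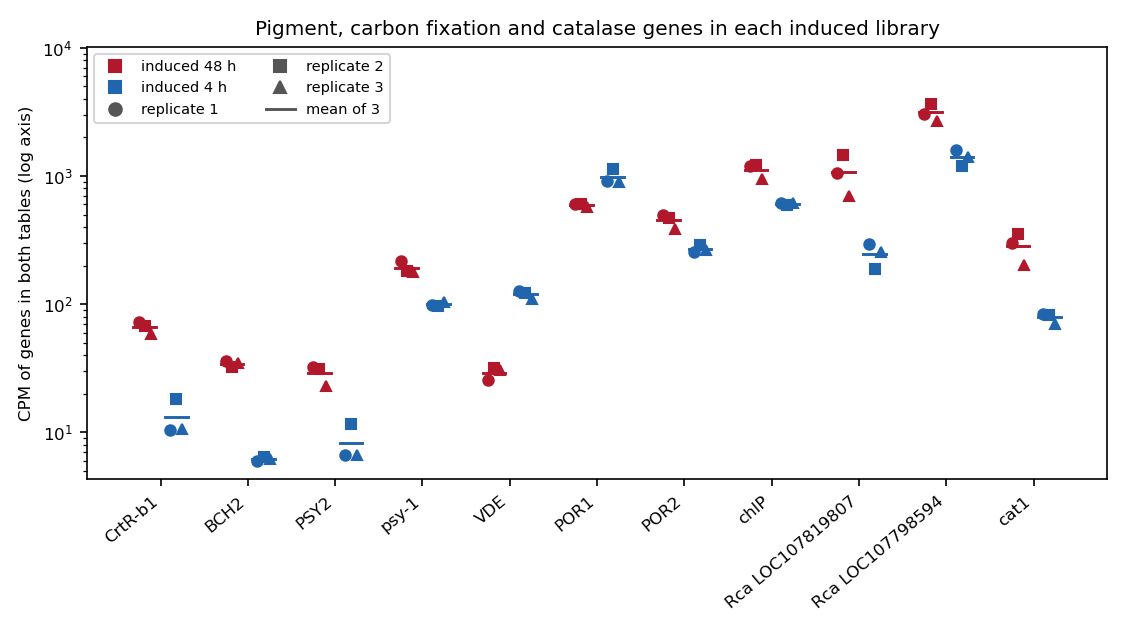
CPM on a log axis of pigment, carbon fixation and catalase genes in each library of induced seedlings at 48 h (red) and at 4 h (blue), with replicates by symbol and the mean of 3 as a line. VDE at 25.7 to 31.5 CPM at 48 h and POR1 at 567.4 to 605.0 CPM at 48 h lie below their 4 h libraries, and the other 9 genes lie above theirs.

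Genes encoded in the organelles were higher more often than lower. Plastid transcripts took 8.53%, 6.29% and 6.88% of the recovered reads at 48 h and 6.04%, 4.70% and 5.69% at 4 h. Of 65 plastid genes tested 21 were higher and 2 lower, with a median of 0.37. All 3 tested genes of the plastid RNA polymerase were higher: rpoB (NitaCp012) by 0.84 ± 0.19, rpoC1 (NitaCp011) by 1.05 ± 0.16 and rpoC2 (NitaCp010) by 0.90 ± 0.16. The call on rpoB was lost without 48 h replicate 1. The reaction centre genes psaA (NitaCp019) and psbD (NitaCp015) rose by 0.69 ± 0.13 (adjusted p = 0.0015) and 1.04 ± 0.15 (adjusted p = 1.6e-04). psbA (NitaCp001), for the D1 protein of photosystem II, had 1825.4, 1217.3 and 1443.4 CPM at 48 h and 934.0, 489.6 and 835.8 CPM at 4 h, did not overlap and did not pass (1.02 ± 0.28, adjusted p = 0.055).

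The plastid genes that fell were rpl16 (NitaCp062), a ribosomal protein, by 0.86 ± 0.15 (adjusted p = 5.7e-04), and ndhB (NitaCp097), of the NDH complex, by 0.74 ± 0.24 (adjusted p = 0.04), a call that ndhB lost with any 1 library left out. Of the 5 plastid genes with the most reads, rps12 (NitaCp095) and the ribosomal RNA genes NitaCr105, NitaCr106 and NitaCr112 rose by 0.37 ± 0.12, 0.94 ± 0.25, 0.57 ± 0.14 and 0.50 ± 0.13, and NitaCr111 did not pass (0.50 ± 0.20, adjusted p = 0.13). Each of those 4 calls was lost when 1 library was left out: for rps12 any but 48 h replicate 3, for NitaCr105 any but 48 h replicate 1 or 2, for NitaCr106 48 h replicate 1, and for NitaCr112 48 h replicate 1 or 4 h replicate 2. Organelle RNA reaches a polyadenylated library only in part, and how far library preparation differed between the times was not tested.

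Mitochondrial genes had 20 of 35 tested higher and none lower (median 0.62), and took 0.273%, 0.216% and 0.239% of reads at 48 h and 0.171%, 0.201% and 0.177% at 4 h. The respiratory genes cox1 (NitaMp049), cox3 (NitaMp118) and nad4 (NitaMp074), of cytochrome oxidase and complex I, rose by 1.48 ± 0.21, 1.1 ± 0.16 and 1.04 ± 0.23 (adjusted p = 6.3e-05, 7.3e-05 and 0.0066). Without 48 h replicate 1 nad4 lost its call. cox1 had 12.5, 8.87 and 7.16 CPM at 48 h and 3.02, 2.50 and 3.55 CPM at 4 h. The ribosomal RNA copies rrn26 (NitaMr001 and NitaMr004) each rose by 0.65 (standard errors 0.12 and 0.13), and rrn18 (NitaMr002) by 0.47 ± 0.12 (adjusted p = 0.013), a call lost without 48 h replicate 1 or 4 h replicate 1 or 3. The rrn26 copies may share reads. Of the mitochondrial ribosomal protein genes 3 were higher, and 1 of them had all 4 h libraries under 1 CPM. That count was 1 to 3 with 1 library left out. Of the 6 fits with a library left out, NitaMp148 kept its call in 2, NitaMp060 in 3 and NitaMp014 in 0.

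The phenylpropanoid route, from phenylalanine to lignin and hydroxycinnamates, had 10 of 20 genes higher and 1 lower (median 0.44), with 8 to 10 higher when 1 library was left out. Phenylalanine ammonia-lyase, its first enzyme, rose at 4 loci. pal4 (LOC107769293) had 39.6, 44.9 and 59.2 CPM at 48 h and 17.1, 14.7 and 16.7 CPM at 4 h, with no overlap (1.52 ± 0.14, adjusted p = 5.9e-07). palB (LOC107761482), NtPAL (LOC107792668) and palA (LOC107786762) rose by 1.09 ± 0.14, 0.56 ± 0.11 and 0.54 ± 0.13. CYP98A33v1 (LOC107824233), a coumarate 3-hydroxylase family member, rose by 1.25 ± 0.16 (adjusted p = 3.1e-05), and the cinnamyl alcohol dehydrogenase CAD19 (LOC107816761) by 0.89 ± 0.14 (adjusted p = 2.2e-04). The gene that fell was hqt (LOC107772942), which makes chlorogenic acid, at 2.82, 1.96 and 2.83 CPM at 48 h and 6.29, 8.72 and 7.06 CPM at 4 h (-1.37 ± 0.20, adjusted p = 1.1e-04).

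Among 22 genes of mitosis and cytokinesis with RefSeq symbols 6 were higher and none lower. The median was 0.38, with a positive fold change in 21. Of 5 tested genes in a second mitotic list, partly from the deposited tables, 0 were higher and 1 was lower (median 0.01). The lower gene, LOC107811449, passed with each library left out, at log2 fold changes between -1.48 and -1.31. The aurora kinases NtAUR2 (LOC107775105), NtAUR3 (LOC107804316) and NtAUR1 (LOC107823144) rose by 0.89 ± 0.17, 0.70 ± 0.20 and 0.50 ± 0.16, and the kinesin TKRP125 (LOC107774014), of the tobacco phragmoplast, by 0.57 ± 0.12. NtAUR2 had 8.11, 6.91 and 6.95 CPM at 48 h and 3.87, 4.03 and 3.28 CPM at 4 h. Of 9 genes of the G1 to S transition 4 were higher and none lower, among them PCNA-II (LOC107778290; 0.55 ± 0.12, adjusted p = 0.0035), the sliding clamp of DNA replication. The count of higher genes in the list of 22 was 3 without 4 h replicate 1 or without 4 h replicate 2. It was 2 when scaled by library size alone. NtAUR3 lost its call without 4 h replicate 2 or 3 or 48 h replicate 1, and NtAUR1 kept its own only without 48 h replicate 2. Of 17 nuclear ribosomal proteins with RefSeq symbols 0 passed in limma, with log2 fold changes between -0.32 and 0.20. In that list 1 was lower with library-size scaling and with a CPM of at least 5 in 3 libraries. The same count came with all 4 groups in 1 fit and without 48 h replicate 1. Of 4 more, described so in the deposited tables, 0 were higher and 1 was lower, with log2 fold changes between -0.71 and 0.48. The lower gene, LOC107797218, passed with each library left out.

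Nicotine genes had low and uneven levels. Of 18 tested, 3 were lower and none higher, but the median log2 fold change was -1.29 and 16 were negative. Ornithine decarboxylase-like (LOC107815922), which supplies putrescine, had 2.64, 1.71 and 2.06 CPM at 48 h and 9.73, 6.44 and 11.3 CPM at 4 h (-1.85 ± 0.22, adjusted p = 1.2e-05). QPT2A (LOC107829122), the quinolinate phosphoribosyltransferase of the pyridine ring, fell by 0.50 ± 0.12 (adjusted p = 0.0077). LOC107792500, described as DETOXIFICATION 40-like and listed in RefSeq as the vacuolar nicotine transporter NtMATE1, fell by 0.93 ± 0.25 (adjusted p = 0.019). QPT2A lost its call without 4 h replicate 1, and NtMATE1 without 4 h replicate 1 or 3 or 48 h replicate 1. Outside the deposited tables the list has 9 tested genes, of which 1 was lower.

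Several larger negative values did not pass, and libraries of the same time differed widely in them. Putrescine N-methyltransferase 1 (LOC107771646), the committed step of the pyrrolidine ring, had 0, 1.2 and 3.30 CPM at 48 h and 10.8, 4.09 and 9.72 CPM at 4 h (-2.45 ± 0.90, adjusted p = 0.16). PMT3 (LOC107799425) had 0.264, 1.14 and 2.53 CPM at 48 h, against 7.85, 3.20 and 6.66 CPM at 4 h (-1.95 ± 0.54, adjusted p = 0.053). The reductase A622 (LOC107784748), which acts late in nicotine synthesis, had 0, 1.52 and 3.05 CPM at 48 h and 12.2, 2.50 and 10.3 CPM at 4 h (-2.28 ± 1.03, adjusted p = 0.25). In these genes and in A622L (LOC107807959) 48 h replicate 1 was lowest of all 6 libraries, and replicate 2 lowest at 4 h. Fewer cells of a type and less RNA per cell cannot be told apart in such bulk tissue. The groups overlapped for A622 and A622L. The count of lower genes was 10 without robust moderation, 5 with log2(CPM + 2), 1 without 4 h replicate 1 and 6 without 48 h replicate 3.

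Both genes listed as nicotine demethylases, enzymes that turn nicotine into nornicotine, were higher: CYP82E5 (LOC107780157) by 0.56 ± 0.19 (adjusted p = 0.044) and LOC107819427 by 1.30 ± 0.26 (adjusted p = 0.0017). LOC107819427 carries the RefSeq synonym CYP82E4 but is described as cytochrome P450 82C4-like in the deposited 48 h table. CYP82E5 kept its call only without replicate 2 of either time.

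**Figure D4:**
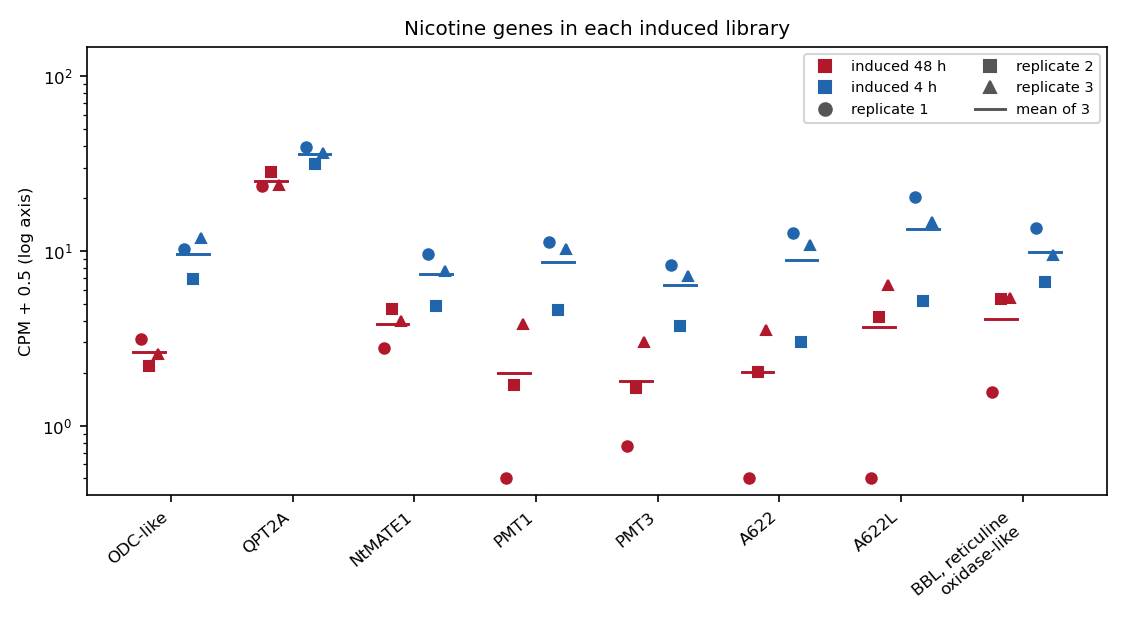
CPM plus 0.5 on a log axis of 8 nicotine genes in each library of induced seedlings at 48 h (red) and at 4 h (blue), with replicates by symbol and the mean of 3 as a line. Replicate 1 at 48 h has 0 CPM of PMT1, A622 and A622L, while ODC-like lies at 1.71 to 2.64 CPM in all 48 h libraries, against 6.44 to 11.3 CPM at 4 h.

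Other hormone genes went in both directions. The brassinosteroid oxidase CYP85A1, which makes castasterone in tomato and Arabidopsis, fell at both loci described so. LOC107760973 had 3.26, 3.04 and 1.59 CPM at 48 h and 9.09, 11.3 and 11 CPM at 4 h (-1.85 ± 0.22, adjusted p = 1.1e-05). LOC107776096 had 1.76, 0.824 and 0.901 CPM at 48 h and 5.82, 6.53 and 5.33 CPM at 4 h (-1.98 ± 0.24, adjusted p = 1.7e-05). Both come from the deposited 4 h table, as do the F-box protein SNE-like genes LOC107769829 and LOC107815865, after an Arabidopsis F-box protein of gibberellin signalling, which fell by 2.31 ± 0.26 and 1.77 ± 0.16.

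The gibberellin receptor GID1B-like (LOC107798874) rose by 2.28 ± 0.22 (adjusted p = 9.1e-07), and the synthesis enzyme NtGA20ox (LOC107825965) fell by 1.17 ± 0.22 (adjusted p = 0.0012). Auxin genes, all from the deposited tables, had 1 of 8 higher and 3 lower: SAUR32-like (LOC107775518) rose by 2.75 ± 0.22, and the small auxin-up genes described as 15A-like, LOC107808395 and LOC107818257, fell by 1.49 ± 0.26 and 0.87 ± 0.18. SAUR32-like fell under the filter on low values when any 48 h library was left out. Histidine kinase 3-like (LOC107821378), named after a cytokinin receptor, had 78.4, 68.2 and 93.8 CPM at 48 h and 25.7, 27.1 and 25.5 CPM at 4 h (1.59 ± 0.12, adjusted p = 6.9e-08). The response regulator ARR17-like (LOC107806182), of a class that cytokinin induces, fell by 1.27 ± 0.17 (adjusted p = 4.3e-05). The ethylene-forming oxidase ACO (LOC107781126), with all 4 h libraries under 1 CPM, rose by 1.42 ± 0.33 (adjusted p = 0.0054), and the receptor ERS (LOC107794639) fell by 0.77 ± 0.19 (adjusted p = 0.014), a call lost without 4 h replicate 3.

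Genes of defence and transport went both ways. Of 16 chitinases and defence proteins with RefSeq symbols 2 were higher and 1 lower (median 0.11). A second defence list of 7 genes, mostly from the deposited tables, shared 2 with the first and had 3 higher and 1 lower (median 0.65). Among those 3, the gene described as WRKY transcription factor 23 (LOC107777523) had 0.746, 0.634 and 0.887 CPM at 4 h. This gene passed the filter on low values only through the 48 h libraries. Of 9 nutrient and sugar transport genes 3 were higher and 1 lower (median 0.09). Some single genes had large falls. rbohD (LOC107823725), the NADPH oxidase that makes superoxide at the plasma membrane, had 11, 9.95 and 12.1 CPM at 48 h and 57.7, 58.6 and 62.5 CPM at 4 h (-2.39 ± 0.11, adjusted p = 3.3e-10). NtPDR1 (LOC107799533), a transporter that exports antimicrobial diterpenes in tobacco, had 31.1, 21.0 and 44.1 CPM at 48 h and 123.5, 143.3 and 170.6 CPM at 4 h (-2.22 ± 0.27, adjusted p = 0.0023). The polygalacturonase inhibitors PGIP1 (LOC107786571) and PGIP2 (LOC107799852) fell by 1.91 ± 0.14 and 1.31 ± 0.21 (adjusted p = 6.7e-08 and 2.1e-04). The times did not overlap for any of these 4 genes. Zinc finger protein 8-like (LOC107828820), named after an Arabidopsis trichome regulator, had 6.52, 4.69 and 2.66 CPM at 48 h and 7.24, 8.78 and 8.16 CPM at 4 h and fell by 0.81 ± 0.24 (adjusted p = 0.028), a call kept only without replicate 1 of either time. It was the only tested member of the list of epidermal and trichome regulators and came from the deposited 4 h table, and no name matched the list of trichome metabolism.

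Wall genes went both ways, with 4 of 19 higher and 5 lower. Nt-EXPA4 (LOC107808676), an expansin that loosens walls, fell by 0.73 ± 0.14 (adjusted p = 0.002), and the cellulose synthase CesA1 (LOC107832318) rose by 0.35 ± 0.11 (adjusted p = 0.046). The count of higher genes was 0 without 4 h replicate 3 or with library-size scaling, and 1 without replicate 1 of either time. CesA1 kept its call only without 4 h replicate 2 or 48 h replicate 3. The tubulins TUA5 (LOC107773558) and TUB6 (LOC107802579) fell by 0.98 ± 0.12 and 0.44 ± 0.11, while TUB8 (LOC107781181) rose by 0.63 ± 0.12. TUB6 lost its call without 4 h replicate 1. The sugar kinases Hxk4a (LOC107810082) and Hxk1 (LOC107797523) fell by 1.24 ± 0.16 and 0.88 ± 0.19. The remaining named genes among the 15 largest falls were SCP1 (LOC107824458; -3.21 ± 0.29), SCP2 (LOC107825700; -1.81 ± 0.24), the lectin MBL1 (LOC107816645; -2.09 ± 0.31), the glucosyltransferase NtGT5b (LOC107789802; -2.04 ± 0.26) and the receptor-like kinase BAM1 (LOC107770387; -2.01 ± 0.13).

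The largest fall and the largest rise were those of genes without a name. LOC107791551 had 77.0, 55.6 and 127.3 CPM at 48 h and 0.852, 1.52 and 6.26 CPM at 4 h (4.96 ± 0.76, adjusted p = 0.019), a call kept, of the 6 fits with a library left out, only in that without 4 h replicate 3. LOC107816896, LOC107805949 and LOC107764008 rose by 4.55 ± 0.20, 4.43 ± 0.18 and 4.26 ± 0.24, below the 4.80 of AFP3-like (LOC107799287). LOC107764008 had 0.639, 0.824 and 0.932 CPM at 4 h and so passed the filter on low values only through the 48 h libraries. LOC107816896 was, like it, tested in only 3 of the 6 fits with a library left out, falling under the filter in the others. In the other direction LOC107774540 had 0.705, 1.39 and 5.10 CPM at 48 h and 117.8, 96.1 and 104.3 CPM at 4 h (-5.51 ± 0.64, adjusted p = 0.0082). LOC107827431, LOC107765731 and LOC107769806 fell by 5.39 ± 0.43, 5.02 ± 0.34 and 4.93 ± 0.29. LOC107827431 was tested in only 3 of the 6 fits with a library left out and fell under the filter on low values in the others. Over all genes 47 rose and 25 fell by at least 8-fold.

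To place these changes, the same ages were compared in control seedlings and the difference between the changes (induced minus control) was tested in 1 fit of 11 distinct libraries. Control replicate 1 was shallow at both times, with 1238170 reads at 48 h and 886919 at 4 h. The reads of control replicate 3 at 48 h were identical to those of replicate 2 and were counted once, so the control change at 48 h rests on 1 deep library. Of 41261 genes 5025 changed in control seedlings, a background of 12.2% (5.68% higher and 6.50% lower), and 66 changed by a different amount in induced seedlings, a background of 0.160% (44 higher and 22 lower; 19 in all without control 48 h replicate 2; 2612 at an unadjusted p under 0.05, and 52 by edgeR). For most genes above the difference did not pass, which does not show that the changes were alike.

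Values of the members stood side by side as follows. NCED3 had a log2 fold change of 3.22 in induced and 2.16 in control seedlings, ABF2 of 3.05 and 1.74, and PP2C2 of 2.39 and 0.92. In the carotenoid genes BCH2 had 2.38 in induced and 2.29 in control seedlings, and VDE -2.02 and -2.07. B-box 19-like had 2.78 in induced and 3.48 in control seedlings, and pal4 1.52 and 1.89. Nicotine genes had a list median of -1.29 in induced and 0.52 in control seedlings, with no difference called in that list. PMT1 had -2.45 ± 0.90 in induced and 1.11 ± 1.15 in control seedlings, and neither change passed. The median of the list of 22 genes of mitosis and cytokinesis was 0.38 in induced and 0.37 in control seedlings. That of the nuclear ribosomal proteins with RefSeq symbols was 0.02 in both. The large falls had -5.51 in induced and -5.10 in control seedlings for LOC107774540, -5.02 and -4.27 for LOC107765731, and -4.93 and -4.69 for LOC107769806. The F-box gene LOC107768020 had -4.36 and -3.60. Of the large rises LOC107764008 had 4.26 and 1.24. Of the 10 genes linked to light and the clock 9 changed in control seedlings, against 12.2% of all genes. The difference passed in 2 of those 10, against 0.160% of all genes.

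Among the 66 genes LOC107782728 had the smallest adjusted p. Its level was 109.7, 118.7 and 136.0 CPM in induced seedlings at 48 h and 8.64, 10.4 and 7.29 CPM at 4 h, and 45.2 and 42.8 CPM in control seedlings at 48 h and 20.3, 19.7 and 29.0 CPM at 4 h. The difference was 2.78 ± 0.21 (adjusted p = 4.5e-07). LOC107764008 differed by 3.02 ± 0.44 (adjusted p = 0.0087), LOC107769771 by 1.92 ± 0.27 (adjusted p = 0.0012) and LOC107798225 by 1.80 ± 0.19 (adjusted p = 3.9e-05). LOC107764008 lost its call without 4 h replicate 1 or 2 of the induced libraries or without control 48 h replicate 2. None of these 4 has a name, and LOC107798225 is the only one of them outside the deposited tables.

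A lateral organ boundary gene, LOC107799348 (described as LOB domain-containing protein 40-like), had 7.45, 6.39 and 5.89 CPM in induced seedlings at 48 h and 0.792, 1.28 and 0.630 CPM at 4 h. Control seedlings had 3.97 and 2.09 CPM at 48 h and 3.21, 3.67 and 3.43 CPM at 4 h, so that the induced libraries lay above the control range at 48 h and below it at 4 h. Its difference was 2.57 ± 0.36 (adjusted p = 0.0012). The heat stress factor B-2b-like LOC107823244 differed by 1.69 ± 0.23 (adjusted p = 0.0012), with log2 fold changes of 2.83 in induced and 1.14 in control seedlings. These genes, LOC107782728, LOC107769771 and LOC107798225 were called in all 11 fits that left out 1 library. LOC107799348 and LOC107823244 are in the deposited 48 h table, so their differences lean on that choice. LOC107769826 and LOC107775044, also described as heat stress factor B-2b-like, differed by 1.64 ± 0.44 and 1.52 ± 0.50. Neither passed (adjusted p = 0.23 and 0.43).

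The chaperone gene dnaJ 11-like (LOC107759587), described as chloroplastic, differed by 1.48 ± 0.23 (adjusted p = 0.0083), the E3 ligase XERICO (LOC107822042), which raises abscisic acid in Arabidopsis, by 1.51 ± 0.29 (adjusted p = 0.025), and histidine kinase 3-like by 1.03 ± 0.18 (adjusted p = 0.011). Each of these 3 calls was lost without control 48 h replicate 2, and XERICO kept its own in 5 of 11 fits with a library left out. All 3 genes are in the deposited 48 h table, so their differences lean on that choice. The mitochondrial gene cox1 differed by 1.49 ± 0.31 (adjusted p = 0.049), at 12.6, 8.94 and 7.23 CPM in induced seedlings at 48 h and 3.06, 2.54 and 3.60 CPM at 4 h, against 4.76 and 8.51 CPM in control seedlings at 48 h and 6.41, 6.67 and 6.29 CPM at 4 h. It kept the call in 2 of 11 fits with a library left out.

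In the lower direction the CYP85A1 genes differed by -1.98 ± 0.36 (LOC107776096, adjusted p = 0.015) and -1.70 ± 0.30 (LOC107760973, adjusted p = 0.011). LOC107760973 had 3.28, 3.07 and 1.60 CPM in induced seedlings at 48 h and 9.22, 11.4 and 11.2 CPM at 4 h, against 5.55 and 5.23 CPM in control seedlings at 48 h and 5.35, 6.57 and 6.33 CPM at 4 h. The induced libraries were thus below the control libraries at 48 h and above them at 4 h. Basic leucine zipper 61-like (LOC107777300) differed by -1.46 ± 0.23 (adjusted p = 0.005) and the unnamed LOC107771462 by -1.45 ± 0.20 (adjusted p = 0.0012). All 4 are in the deposited 4 h table of genes higher in induced seedlings, as are 12 of the 66 genes, and 17 of the 66 are in the 48 h table, so their differences lean on that choice. Both CYP85A1 calls were lost without control 48 h replicate 2, that of LOC107760973 also without control 4 h replicate 1, and that of LOC107776096 also without control 4 h replicate 3 or induced 4 h replicate 1. LOC107794181, outside both tables, differed by -1.62 ± 0.32 (adjusted p = 0.034) and kept the call in 4 of 11 such fits.

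**Figure D5:**
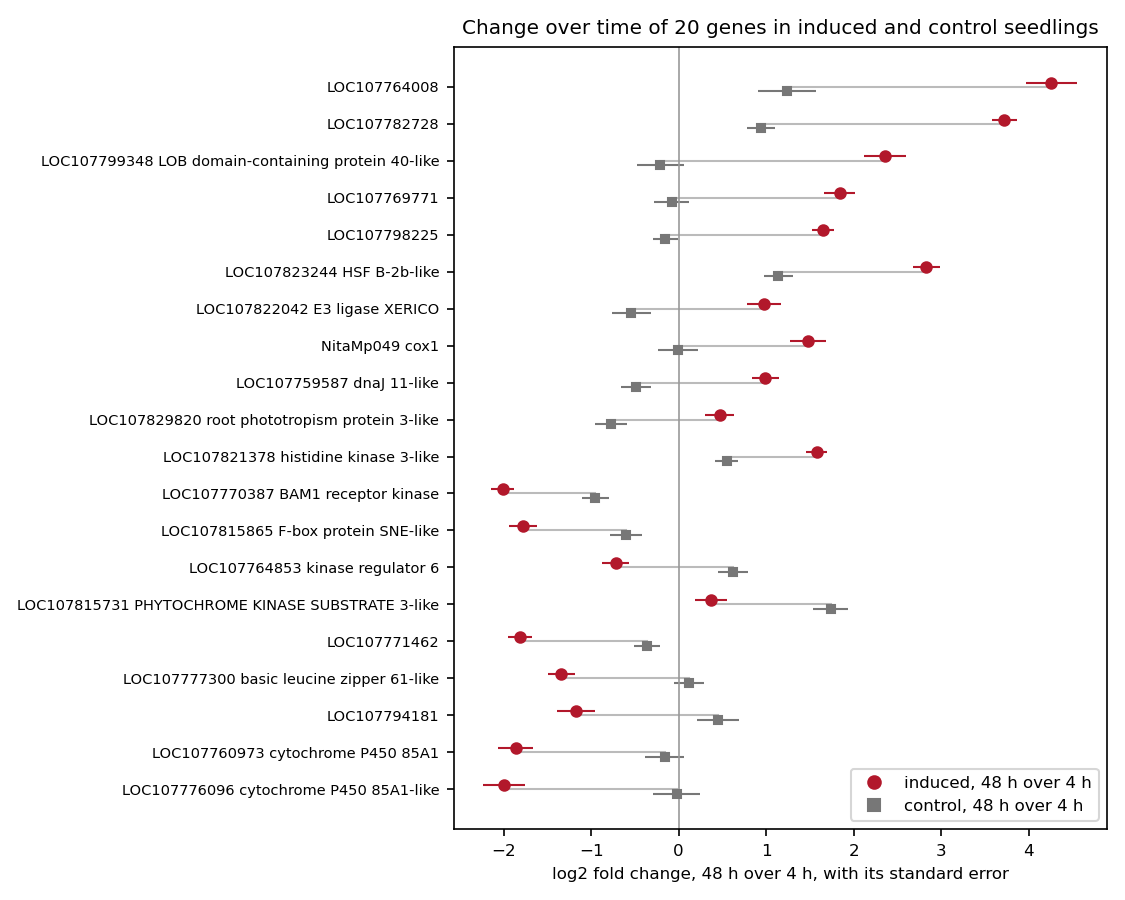
Log2 fold change of 48 h over 4 h with its standard error in induced seedlings (red circles) and control seedlings (grey squares) for 20 genes whose change differed between them at an adjusted p under 0.05. LOC107764008 is at the top with a difference of 3.02, and the CYP85A1-like gene LOC107776096 at the bottom with -1.98.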

How the data were processed

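Polyadenylated RNA of 12 samples was sequenced. The submitters' processing notes name edgeR without a version. Not given in the sources used here are the aligner, the read counter, the build and the gene models. The deposited per-library values are a signal scaled by the authors: each is a whole multiple of the smallest value of its library, and 100% gave whole reads within a tolerance of 0.01. The deposited ratio (fold) of the authors' tables of higher genes was not used. Of the 42028 genes that both tables hold, 18 had an inflated entry (at least 5000 and 20 times the gene's median) and were left out. Recovered reads were scaled by TMM (edgeR 4.0.16), kept at a CPM of at least 1 in 3 libraries, and tested on log2(CPM + 0.5) with limma 3.58.1 (intensity trend, robust moderation, Benjamini-Hochberg, threshold 0.05) in R 4.3.3. Such folds understate changes of low genes. Alternatives included DESeq2 1.42.0, other scalings, filters and pseudocounts, and each library left out.

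Of counts from 1 to 20, 67.4% to 71.1% were even in the 6 induced libraries, so reads are not independent molecules. The share was 48.4% at 4 h and 49.9% at 48 h in control replicate 1, and 70.5% to 73.4% in the other control libraries. The fit of the difference holds libraries of both kinds, and the cause of this unlikeness was not tested. The labels do not say whether libraries came from separate cultures, so p-values measure the spread between these libraries, which may be technical. The main fit did not pair the libraries by replicate number. Names follow RefSeq symbols and synonyms (37535 genes matched, assembly ASM71507v2) and the deposited descriptions, and lists match names by pattern. Members and lists were chosen with earlier results of these data known. Named genes were the 15 largest named and 4 largest unnamed changes each way without overlap, list members that were called, the 5 largest differences each way, and the 5 plastid and 3 mitochondrial genes with the most reads. Uncalled genes other than NitaCr111, and LOC107829820 and LOC107815731, were chosen after their values were seen. Only the scaling, filter and test of 48 h against 4 h were run on simulated data, with independent counts for the 6 induced libraries. Read recovery, the removal of inflated entries, the excess of even counts and the difference between induced and control seedlings were not simulated.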

Additional observations from a re-analysis of the deposited data

Results flagged for a closer look

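The following genes changed by a different amount between 48 h and 4 h in induced than in control seedlings, by the test of the difference itself (limma, adjusted p under 0.05). Values are induced minus control on the log2 scale. All of them but LOC107798225, LOC107794181 and cox1 (NitaMp049) are in the deposited tables of genes higher in induced than in control seedlings. Those with positive differences are in the 48 h table and those with negative differences in the 4 h table. Their differences therefore lean on that choice. The difference was 3.02 for LOC107764008, 2.78 for LOC107782728, 1.92 for LOC107769771 and 1.80 for LOC107798225, none of which has a name. It was 2.57 for the LOB domain-containing protein 40-like gene LOC107799348, 1.69 for the heat stress factor LOC107823244, 1.51 for XERICO (LOC107822042), 1.49 for cox1 (NitaMp049) and 1.48 for dnaJ 11-like (LOC107759587). It was 1.24 for the root phototropism protein 3-like gene LOC107829820 and 1.03 for the histidine kinase LOC107821378. LOC107829820 did not pass in the fit of the induced libraries alone. In the joint fit its log2 fold change was 0.47 in induced and -0.77 in control seedlings.

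In the lower direction the difference was -1.06 for the receptor kinase BAM1 (LOC107770387) and -1.18 for the F-box gene LOC107815865. It was -1.34 for the membrane-associated kinase regulator LOC107764853 and -1.37 for the PHYTOCHROME KINASE SUBSTRATE 3-like gene LOC107815731. LOC107815731 did not fall in induced seedlings: its log2 fold change was 0.37 there, which did not pass, and 1.74 in control seedlings. The difference was -1.45 for LOC107771462, -1.46 for the leucine zipper gene LOC107777300 and -1.62 for LOC107794181. The cytochrome P450 85A1 genes LOC107760973 and LOC107776096 had -1.70 and -1.98. With each of the 11 libraries left out in turn, the call held in 2 fits for cox1 and LOC107815865, 3 for LOC107829820, 4 for LOC107815731 and LOC107794181, 5 for BAM1 and XERICO, 8 for LOC107764008 and LOC107776096, and 9 to 11 for the other 11 genes. Without control replicate 1 of both times 9 of the 20 kept their call, and by edgeR 14 did. Other genes with the same descriptions as some of these did not pass in limma. The F-box protein SNE-like gene LOC107769829 differed by -1.43 ± 0.33 (adjusted p = 0.16) and the BAM1 gene LOC107760335 by -0.97 ± 0.29 (adjusted p = 0.33). The heat stress factors LOC107769826 and LOC107775044 differed by 1.64 and 1.52 (adjusted p = 0.23 and 0.43).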

How the results depend on the processing

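Counts of changed genes in induced seedlings stayed within 1.5 times under every alternative but 1: scaled by library size alone 2285 genes were higher and 5542 lower. With 1 library left out the total lay between 4841 and 6403, with 2531 to 3031 higher and 2310 to 3372 lower. The replicate block gave 6883 genes, edgeR 6872 and DESeq2 6701. Correlations of deviations were -0.049, 0.048 and 0.113 for libraries of the same replicate number, and between -0.144 and 0.09 for different numbers. These values do not settle whether the numbers pair the libraries. Of 240 called genes named here, 163 passed with each library left out, 66 lost the call at least once, and 11 passed wherever tested but fell under the filter in some fits. None changed sign. For the uncalled ABF1 the log2 fold change of LOC107815582 changed sign, to -0.048 with library-size scaling, and ranged from -0.021 (without 48 h replicate 3) to 0.29 (without 48 h replicate 2) with 1 library left out.

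The difference between induced and control seedlings was the least stable. Without control replicate 1 of both times 41 genes passed, 8 of them lower. With the repeated control library counted as 2 samples 36 were lower. With a replicate block by library number 132 passed, 89 higher and 43 lower. With 1 library left out 19 to 94 passed, 14 to 68 higher and 5 to 34 lower, fewest without control 48 h replicate 2. The control change gave 3346 genes (1487 higher) without control replicate 1, and 8501 (4006 higher, 4495 lower) with the repeated library counted as 2. With 1 library left out it gave 2243 to 5264, with 978 to 2724 higher and 1265 to 2848 lower. The cause of these shifts was not tested. The shallow control libraries, at 1238170 reads (48 h) and 886919 reads (4 h), limit what the difference can show for low genes.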
